A study of Mus musculus with 18 samples.

Results

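Arterial and venous identity was described with 6 genes measured in endothelial cells (ECs), which form the inner lining of vessels. The genes were chosen by name. Efnb2, Sox17 and Bmx stood for arterial ECs, and Nr2f2, Ephb4 and Ackr1 for venous ECs. All 6 were among the 16248 genes of the expression table, and all 6 passed the filter on low values, which left 13983 genes to test. Bulk RNA sequencing had been carried out on live CD45-negative, CD31-positive ECs sorted from FVB mice, in 6 groups of 3 libraries (18 libraries). Normal ECs were taken from mammary fat pads of wild-type mice, MMTV-PyMT ECs from spontaneous breast tumours of MMTV-PyMT mice, and implanted ECs from tumours grown in the fat pad of wild-type FVB mice. Each tissue had been injected with phosphate-buffered saline (PBS) or with cGAMP, an agonist of the DNA-sensing adaptor STING, and was collected 3 h later. In MMTV-PyMT mice a viral promoter drives polyoma middle T antigen in the mammary epithelium, and the implanted tumours were raised from briefly cultured tumour cells of such mice. No STING-deficient group and no uninjected group was among the libraries, and the labels give no ages. The study describes the libraries of a group as separate mice from independent experiments, so p-values measure the spread between mice, and the labels do not say which library came from which experiment.

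Arteries and veins differ in the genes their ECs express before they differ in shape. In arterial ECs, VEGF and Notch signalling together with SOXF transcription factors keep Efnb2 and other arterial genes on. In venous ECs, the nuclear receptor encoded by Nr2f2 (COUP-TFII) represses Notch signalling and sustains the venous programme. Efnb2 encodes ephrin-B2, a membrane-bound ligand, and Ephb4 encodes its receptor, and contact between both proteins helps to keep arterial and venous cells apart. Ackr1, the atypical chemokine receptor once called the Duffy antigen, marks the postcapillary venules through which leukocytes leave the blood. Bmx is a TEC-family kinase found in arterial ECs.

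The 6 genes are protein-coding and lie apart in the genome (GENCODE M21 annotation of GRCm38). Efnb2 (ENSMUSG00000001300.16) is at chr8:8617434-8661242 on the minus strand. Sox17 (ENSMUSG00000025902.13) is at chr1:4490931-4497354 and Ackr1 (ENSMUSG00000037872.5) at chr1:173331886-173333750, both on the minus strand. Bmx (ENSMUSG00000031377.11) is at chrX:164192842-164258193 and Nr2f2 (ENSMUSG00000030551.14) at chr7:70351944-70366735, both on the minus strand. Ephb4 (ENSMUSG00000029710.15) is at chr5:137350109-137378669 on the plus strand. Ackr1 shares 361 exon bases (25.7% of its exons) with Cadm3 on the same strand, so reads from there may be dropped or assigned to either gene. Sox17 shares 804 exon bases (16.8%) and Nr2f2 643 (7.5%) with non-coding transcripts of the opposite strand, both listed at no more than 0.639 FPKM in any library, and Ephb4 shares 33 (0.7%) with Zan.

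In this series the arterial genes Efnb2 and Bmx went apart in implanted tumours, and the sequences before their starts differ in composition. That pair is shown for these reasons, picked after its levels were seen, and a link between sequence and level was not tested. RefSeq promoter sequences (GRCm38.p6) were found for 5 of the 6 genes. The 250 bases before the start were searched on both strands for motifs of factors tied to these genes or to the treatment: RBPJ (TGGGAA, the DNA-binding partner of Notch), SOX (ACAAT), the nuclear receptor half-site (AGGTCA), GAS (TTCNNNGAA), ISRE (the interferon-stimulated response element) and the NF-kB consensus, which can overlap an RBPJ match. Matches are in capitals, and both sequences run 5′ to 3′ on the minus strand, up to the base before the start.
Efnb2, chr8:8661243-8661492: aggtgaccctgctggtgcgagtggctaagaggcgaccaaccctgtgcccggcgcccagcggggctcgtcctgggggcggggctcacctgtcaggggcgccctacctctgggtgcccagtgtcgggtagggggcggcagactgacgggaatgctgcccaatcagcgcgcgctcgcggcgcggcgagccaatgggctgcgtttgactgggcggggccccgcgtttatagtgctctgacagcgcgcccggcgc
Bmx, chrX:164258194-164258443: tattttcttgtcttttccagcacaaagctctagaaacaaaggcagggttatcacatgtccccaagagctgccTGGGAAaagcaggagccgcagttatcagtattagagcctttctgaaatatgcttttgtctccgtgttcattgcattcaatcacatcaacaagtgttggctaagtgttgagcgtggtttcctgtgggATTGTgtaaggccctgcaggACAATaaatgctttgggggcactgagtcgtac

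The Efnb2 window was 72% G and C with 27 CpG dinucleotides, against medians of 52.4% and 6 over 32851 promoters, and held none of the searched motifs. The Bmx window was 45.6% G and C with 4 CpG. It held an RBPJ match beginning 178 bases before the start and SOX matches, on opposite strands, 52 and 32 bases before it. Of all promoters, 21.6% held an RBPJ match and 27.7% a SOX match in windows of the same length. The windows before Ephb4, Nr2f2 and Ackr1 were 64%, 50% and 49.2% G and C. Ackr1 had an RBPJ match 211 bases and a half-site (present in 14% of all promoters) 167 bases before its start. No window of the 5 genes held the letters of ISRE, GAS or the NF-kB consensus, which 2.98%, 7.02% and 3.9% of all promoters did. A match is a description of letters and says nothing of binding.

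Levels are given as FPKM, fragments per kilobase of gene length after scaling of each library, which allows genes to be set side by side. Whole reads recovered from the FPKM values of 15779 genes ranged from 8917985 to 11854056 per library. The depth that the FPKM imply was 1.11 to 1.19 times these reads in normal libraries. In implanted cGAMP libraries it was 0.757 to 0.854 times, so the scaling of the FPKM differs by group from scaling by total reads. The pan-endothelial markers Pecam1, Cdh5 and Kdr were at 138 to 386, 265 to 782 and 57.3 to 129 FPKM in the 18 libraries, and 10 pan-endothelial markers summed to between 853 and 2218 FPKM. In addition, 8 of 8 interferon response genes rose with cGAMP in each tissue. Of all tested genes 13.7%, 7.42% and 20.3% rose in normal, MMTV-PyMT and implanted ECs. The study had already reported these 8 genes as raised by cGAMP in tumour ECs, so their rise serves only to check the treatment. Interferon response genes were also higher in implanted than in MMTV-PyMT ECs under PBS (8 of 8, summed level 328 to 498 against 17.6 to 44.5 FPKM), where 20.8% of all tested genes were higher. Transcripts of other cells were present. Mural cell markers summed to between 781 and 1069 FPKM in normal libraries and between 170 and 429 FPKM in tumour libraries, and epithelial markers to between 646 and 988 FPKM in MMTV-PyMT libraries, against 257 to 552 FPKM elsewhere. In MMTV-PyMT PBS libraries the epithelial sum (850 to 988 FPKM) was close to the pan-endothelial sum (853 to 1038 FPKM), and the epithelial genes Epcam, Krt8 and Krt18 (186 to 213, 225 to 236 and 253 to 275 FPKM) were above Pecam1 (138 to 177 FPKM). Markers of leukocytes, which the sort was to remove, summed to between 16.9 and 64 FPKM, except for implanted cGAMP libraries at 44.5 to 212 FPKM.

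Across the 18 libraries the 6 genes covered very different ranges. Ephb4 was the steadiest, from 43.3 to 83.5 FPKM, a 1.93-fold range, and libraries of every neighbouring pair of groups overlapped when the groups were ranked by its mean. Efnb2 ranged 4.21-fold, Sox17 4.8-fold, Nr2f2 7.28-fold, Ackr1 18.3-fold and Bmx 49.6-fold. The low end of Bmx rested on 8 to 25 reads per implanted library, so its values there are imprecise by counting alone, whereas every other member had at least 120 reads in every library. For Sox17, Nr2f2 and Bmx the order of groups began with normal PBS and then normal cGAMP, each apart from the next group, and tumour groups followed. Efnb2 was instead led by implanted PBS and Ackr1 by normal cGAMP.

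**Figure D1:**
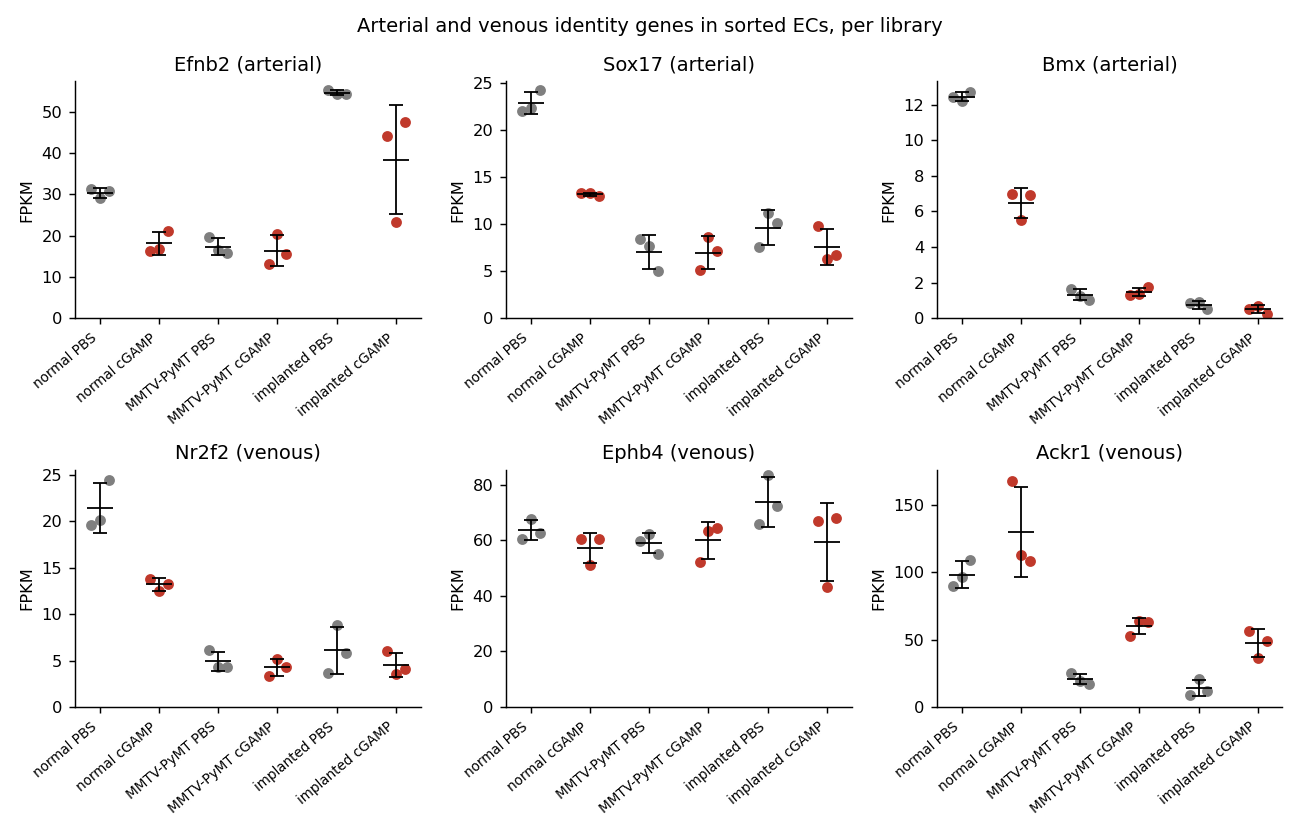
FPKM (y axis, from 0) of the 6 genes in each of the 18 libraries, 3 per group on the x axis, with PBS in grey and cGAMP in red. Horizontal bars are means and error bars are SD (n = 3). Sox17, Bmx and Nr2f2 are highest in normal PBS, Efnb2 in implanted PBS at 54.2 to 55.3 FPKM, and Ackr1 in normal cGAMP.

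To ask how arterial and venous genes differ between untreated normal and tumour vessels, the PBS groups were compared first. In MMTV-PyMT ECs, 5 of the 6 members were lower than in normal ECs and 0 higher. Of all tested genes 56.5% passed in this comparison, 29.8% as higher and 26.6% as lower. A gene is said to have passed, risen or fallen where its adjusted p was under 0.05 in a limma fit over the 18 libraries with Benjamini-Hochberg adjustment over the 13983 tested genes, and log2 changes are on the log2(FPKM + 1) scale, which understates changes of low genes. The median log2 change was −1.59 for the 3 arterial and −1.93 for the 3 venous genes, against 0.02 over all tested genes. The libraries of the 2 groups did not overlap for 5 of 6 members and for 67.7% of all tested genes. In bulk samples, fewer cells of a type and less RNA per cell cannot be told apart.

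Among the arterial genes, Bmx changed most. It was at 12.4, 12.2 and 12.7 FPKM in normal PBS libraries and at 1.66, 1.25 and 1.04 FPKM in MMTV-PyMT PBS libraries, a log2 change of −2.54 ± 0.14 (SE; adjusted p = 1.77e-09). Sox17, a SOXF transcription factor of arterial ECs, was at 22.1, 22.4 and 24.3 FPKM against 8.48, 7.64 and 5.06 FPKM, a log2 change of −1.59 ± 0.19 (adjusted p = 4.11e-06). The groups stood well apart for both genes. Efnb2 fell less, from 31.2, 29 and 30.8 FPKM to 19.6, 16.5 and 15.7 FPKM, with a log2 change of −0.78 ± 0.2 (adjusted p = 0.00395) and no overlap between groups. When libraries were scaled by pan-endothelial markers, of which 7 of 10 were lower in MMTV-PyMT ECs (their median log2 change was −0.51), the Efnb2 change was −0.22 with an adjusted p of 0.226, so its call depends on the scaling.

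Among the venous genes, Nr2f2 and Ackr1 fell and Ephb4 did not pass. Nr2f2 was at 19.6, 20.2 and 24.5 FPKM in normal PBS libraries and at 6.11, 4.27 and 4.32 FPKM in MMTV-PyMT PBS libraries (log2 change −1.93 ± 0.22, adjusted p = 2.79e-06). Ackr1 was at 89.7, 96.1 and 109 FPKM against 24.9, 19.6 and 17.3 FPKM (log2 change −2.21 ± 0.24, adjusted p = 1.42e-06), with groups far apart. Ephb4 was at 60.7, 67.6 and 62.8 FPKM against 59.9, 62.3 and 55.3 FPKM, overlapping values with a log2 change of −0.11 and a 95% interval from −0.39 to 0.18. Under scaling by pan-endothelial markers the Ephb4 change turned to 0.48 (adjusted p = 0.0062), so no direction can be given for it. Cadm3, which overlaps Ackr1, was at 5.25 to 6.5 FPKM in normal PBS and at 0.586 to 0.883 FPKM in MMTV-PyMT PBS libraries, far below Ackr1.

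In implanted ECs, 5 of the 6 members also differed from normal ECs under PBS, 1 as higher and 4 as lower, where 48.7% of all tested genes passed (25% higher, 23.6% lower). The groups did not overlap for 5 of 6 members and for 61.5% of all tested genes. Normal PBS libraries serve as the control in both tumour comparisons, so the 2 sets of values are not independent. Efnb2 went up here. It was at 55.3, 54.4 and 54.2 FPKM in implanted PBS libraries, all above the 29 to 31.2 FPKM of normal PBS, a log2 change of 0.83 ± 0.2 (adjusted p = 0.00316). Bmx was at 0.831, 0.913 and 0.491 FPKM, a log2 change of −2.95 ± 0.14 from normal (adjusted p = 2.99e-10). Thus the arterial set did not move as 1 group, and the ligand and the kinase were at opposite ends of it.

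The other members were all lower in implanted than in normal ECs, save Ephb4. Sox17 was at 7.58, 11.2 and 10.1 FPKM (log2 change −1.19 ± 0.19, adjusted p = 8.87e-05) and Nr2f2 at 3.71, 8.81 and 5.77 FPKM (log2 change −1.72 ± 0.22, adjusted p = 1.06e-05). Ackr1 was at 9.14, 20.4 and 11.5 FPKM, with a log2 change of −2.83 ± 0.24 (adjusted p = 1.06e-07). None of these libraries reached the normal range. Ephb4 was at 65.8, 83.5 and 72.3 FPKM, which overlapped normal PBS, and its log2 change of 0.2 had a 95% interval from −0.08 to 0.49.

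The tumour models were then set against each other under PBS. Here 3 of the 6 members passed (1 higher and 2 lower in implanted ECs), against 45.5% of all tested genes (20.8% higher, 24.6% lower), and the groups did not overlap for 3 members and for 58.4% of all tested genes. Efnb2 was 3.16-fold higher by mean FPKM in implanted than in MMTV-PyMT ECs (54.6 ± 0.604 against 17.3 ± 2.09 FPKM, SD, n = 3), with a log2 change of 1.61 ± 0.2 (adjusted p = 1.55e-05) and wide separation of the libraries. Its log2 change was 1.03 to 1.7 under the alternatives and passed under each. Of 10 pan-endothelial markers, 7 were higher and 1 lower in implanted ECs too (median log2 change 0.69), so its size depends on the scaling. Bmx was lower (log2 change −0.41, adjusted p = 0.0229), and this was lost without MMTV-PyMT PBS 1 (−0.31, adjusted p = 0.107) or implanted PBS 3 (−0.3, adjusted p = 0.115). Ackr1 was also lower (log2 change −0.62, adjusted p = 0.0451), but its libraries overlapped. Leaving out any 1 of 11 of the 18 libraries ended that call, for example implanted PBS 1 (−0.39, adjusted p = 0.211), while without implanted PBS 2 the change was −0.93 (adjusted p = 0.00304), and it was kept only without normal cGAMP 1, 2 or 3, MMTV-PyMT PBS 3, implanted PBS 2 or implanted cGAMP 1 or 2. Sox17 (0.41, adjusted p = 0.0898), Nr2f2 (0.22, adjusted p = 0.443) and Ephb4 (0.31, adjusted p = 0.0934) did not pass, and the log2 changes of Sox17, Nr2f2 and Ephb4 turned negative (−0.13, −0.29 and −0.29) under scaling by pan-endothelial markers.

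**Figure D2:**
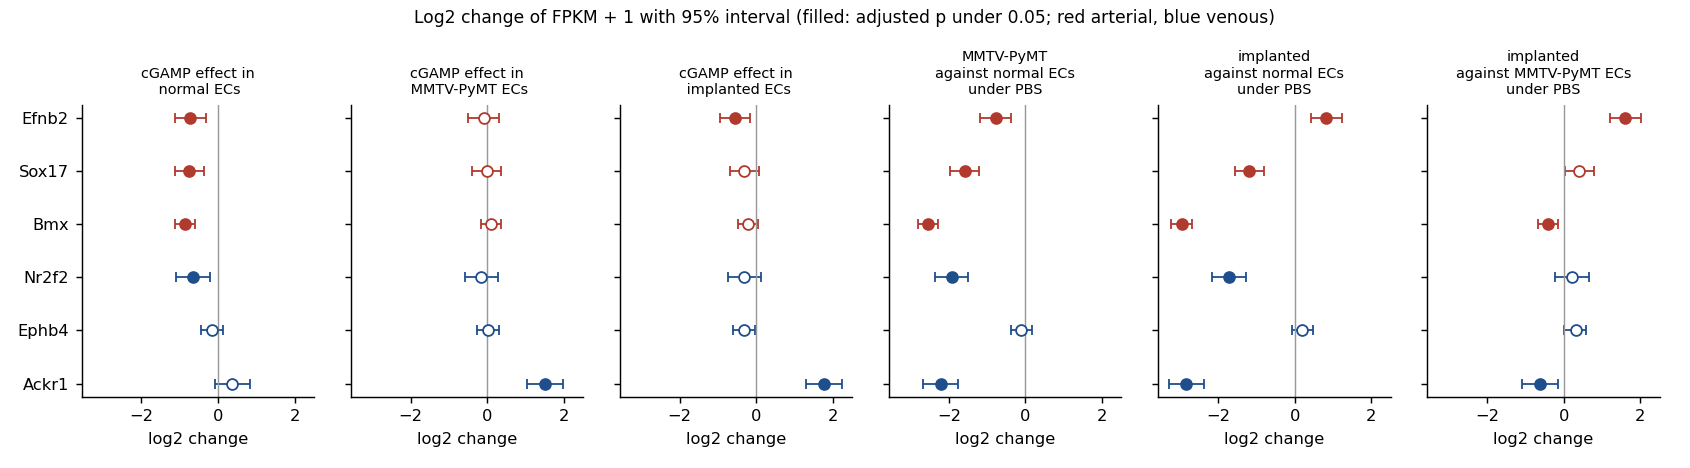
Log2 change (x axis) of each gene in 6 comparisons, with 95% intervals. Red is arterial, blue is venous, and filled symbols have an adjusted p under 0.05. Efnb2 lies to the left of 0 in MMTV-PyMT against normal ECs (−0.78) and to the right in implanted against normal ECs (0.83), and Ackr1 lies to the right of 0 in the cGAMP effect of both tumours (1.51 and 1.77).

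The ligand-to-receptor ratio gave the same contrast within each library, where library scaling cancels. Efnb2 FPKM divided by Ephb4 FPKM was 0.429 to 0.513 in normal PBS, 0.265 to 0.328 in MMTV-PyMT PBS and 0.651 to 0.841 in implanted PBS libraries. The 3 ranges did not overlap. After cGAMP the ratio was 0.27 to 0.351 in normal, 0.243 to 0.322 in MMTV-PyMT and 0.537 to 0.7 in implanted libraries. The cGAMP range lay below that of PBS in normal ECs and overlapped it in both tumours.

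Transcripts of other cells moved with the fall of Sox17, Bmx, Nr2f2 and Ackr1 in tumours. Of the mural cell markers, 7 of 8 fell in each tumour against normal, and summed to 947 to 1069 FPKM in normal PBS, 215 to 295 FPKM in MMTV-PyMT PBS and 205 to 247 FPKM in implanted PBS libraries. Lymphatic EC markers summed to 55.3 to 65.7 FPKM in normal PBS against 9.32 to 16 and 15.4 to 25.4 FPKM, and 4 of the 4 in the table fell in each tumour. The lowest values in any library were 1.57 FPKM for Prox1 and 2.89 FPKM for Lyve1. Capillary EC markers fell as well, 6 of 8 in MMTV-PyMT (median log2 change −1.44) and 5 of 8 in implanted ECs (1 was higher, median −0.46), so lower levels were not particular to arterial and venous genes. Epithelial markers went the other way in MMTV-PyMT ECs, where 5 of 8 were higher (median 1.27). Nr2f2 is known to be active in lymphatic ECs, mural cells and fibroblasts too. Across the 18 libraries, Pearson r of log2 level with the log2 summed mural markers was 0.93 for Bmx, 0.91 for Nr2f2, 0.86 for Sox17 and 0.8 for Ackr1. It was −0.17 for Efnb2 and −0.14 for Ephb4. For Bmx, Nr2f2, Sox17 and Ackr1, r with the lymphatic markers was 0.76, 0.85, 0.83 and 0.79. With the epithelial markers it was −0.4, −0.64, −0.68 and −0.47 in the same order. These values describe points that fall into a normal and a tumour cloud. The part of these transcripts in the result was not tested.

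**Figure D3:**
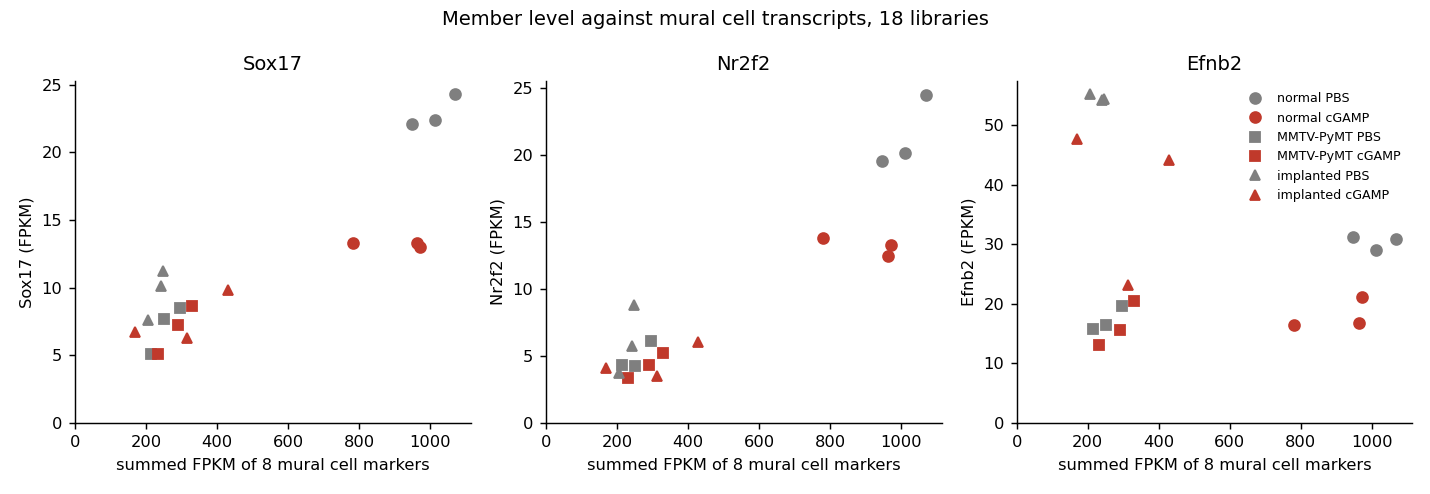
FPKM of Sox17, Nr2f2 and Efnb2 (y axes) against the summed FPKM of 8 mural cell markers (x axis) in 18 libraries. Circles are normal, squares MMTV-PyMT and triangles implanted ECs, with PBS in grey and cGAMP in red. Normal libraries sit to the right at 781 to 1069 FPKM of mural markers, and among them Sox17 and Nr2f2 are lower after cGAMP, while Efnb2 is highest in implanted PBS libraries at the left.

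The effect of cGAMP was then asked within each tissue. In normal ECs 4 of the 6 members fell and 0 rose, where 31.9% of all tested genes passed, 13.7% as higher and 18.2% as lower. All 3 arterial genes were among those 4, with a median log2 change of −0.75 against −0.04 over all tested genes. Efnb2 went from 31.2, 29 and 30.8 FPKM to 16.4, 16.7 and 21.2 FPKM (log2 change −0.72 ± 0.2, adjusted p = 0.0134). Sox17 went from 22.1, 22.4 and 24.3 FPKM to 13.3, 13.3 and 13 FPKM (log2 change −0.75 ± 0.19, adjusted p = 0.00692). Bmx went from 12.4, 12.2 and 12.7 FPKM to 6.95, 5.49 and 6.93 FPKM (log2 change −0.86 ± 0.14, adjusted p = 0.000245). For each of the 3, every cGAMP library lay below every PBS library. The groups did not overlap for 5 of the 6 members and for 48.9% of all tested genes.

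The venous genes did not share 1 direction in normal ECs. Nr2f2 went from 19.6, 20.2 and 24.5 FPKM to 13.8, 12.5 and 13.3 FPKM, again without overlap (log2 change −0.66 ± 0.22, adjusted p = 0.0337). That call was close to the threshold, and leaving out any of the 6 normal libraries ended it (log2 change −0.71 to −0.56, adjusted p 0.0517 to 0.122), as did scaling by pan-endothelial markers (−0.5, adjusted p = 0.0565). Ephb4 had a log2 change of −0.15 with a 95% interval from −0.44 to 0.13. Ackr1 was at 168, 113 and 108 FPKM after cGAMP, of which 168 and 113 lay above the PBS range of 89.7 to 109 and the last within it, and its log2 change of 0.37 (95% interval −0.09 to 0.84) did not pass. Mural cell markers in these libraries summed to 781 to 972 FPKM after cGAMP against 947 to 1069 FPKM, and 1 of 8 (Cspg4) fell.

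Ackr1 rose with cGAMP in both tumours. In MMTV-PyMT ECs it rose from 24.9, 19.6 and 17.3 FPKM to 52.9, 63.5 and 63.3 FPKM (log2 change 1.51 ± 0.24, adjusted p = 0.000398), a 2.91-fold change of the mean. It was the 1 member of 6 that passed there, against 12% of all tested genes (7.42% higher, 4.57% lower), and the 1 whose groups did not overlap, against 33.4%. In implanted ECs it rose from 9.14, 20.4 and 11.5 FPKM to 56.6, 36.1 and 48.9 FPKM (log2 change 1.77 ± 0.24, adjusted p = 2.18e-05), a 3.45-fold change of the mean. In both tumours every cGAMP library was above every PBS library, and none reached the 89.7 FPKM of the lowest normal PBS library. The call held in both tumours under every alternative tried, the 2-fold limit included, with log2 changes of 1.29 to 1.65 and 1.43 to 2.08. Cadm3 was at no more than 1.16 FPKM in any tumour library.

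The arterial genes of MMTV-PyMT ECs did not pass with cGAMP. Efnb2 was at 13.1, 20.5 and 15.6 FPKM, Sox17 at 5.12, 8.61 and 7.2 FPKM and Bmx at 1.31, 1.36 and 1.75 FPKM, values that overlapped PBS for each gene. The 95% intervals of the log2 change were −0.49 to 0.31 for Efnb2, −0.39 to 0.36 for Sox17 and −0.17 to 0.37 for Bmx. Nr2f2 was at 3.36, 5.2 and 4.29 FPKM (interval −0.59 to 0.28) and Ephb4 at 52.4, 63.6 and 64.4 FPKM (interval −0.27 to 0.3). Signs of the small changes of Efnb2, Sox17, Bmx and Ephb4 turned with a single library or with the scaling.

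In implanted ECs, 2 of the 6 members passed with cGAMP (1 higher, 1 lower) and 39.1% of all tested genes did (20.3% higher, 18.8% lower). The same 2 did not overlap between groups, against 45.3% of all tested genes. The member that fell was Efnb2, at 44.2, 23.2 and 47.6 FPKM against 54.2 to 55.3 FPKM (log2 change −0.56, adjusted p = 0.0383). The low second library set much of this change. Without implanted cGAMP 2 it was −0.25 (adjusted p = 0.194), and the call was also lost without any of the 3 implanted PBS libraries (adjusted p 0.0765 to 0.0857). Ephb4 was lowest in the same library (67.2, 43.3 and 68 FPKM; log2 change −0.33, adjusted p = 0.0847). Sox17 was at 9.82, 6.28 and 6.69 FPKM, Nr2f2 at 6.02, 3.5 and 4.1 FPKM and Bmx at 0.542, 0.692 and 0.256 FPKM, all overlapping PBS, with log2 changes of −0.31, −0.32 and −0.22 that did not pass. When libraries were scaled by total reads, which lowered the median of all genes by 0.23 in this comparison, 5 of the 6 members passed (1 higher, 4 lower). In these cGAMP libraries 5 of 6 fibroblast markers rose, to a summed 254 to 609 FPKM from 234 to 271 FPKM, and their part in the result was not tested.

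Whether the effect of cGAMP differed between tissues was tested directly as a difference of log2 changes. Between MMTV-PyMT and normal ECs, 2 of the 6 members differed, both upward, as did 8.37% of all tested genes (5.48% upward, 2.9% downward). Bmx fell with cGAMP in normal but not in MMTV-PyMT ECs, a difference of 0.95 ± 0.19 (adjusted p = 0.00824), which did not pass with a pseudocount of 0.1 FPKM (1.11, adjusted p = 0.0835) or with scaling by pan-endothelial markers (0.68, adjusted p = 0.0985). Ackr1 differed by 1.14 ± 0.34 (adjusted p = 0.0479), a call at the threshold. It was lost without normal PBS 1, 2 or 3, normal cGAMP 2 or 3, MMTV-PyMT PBS 2 or 3, MMTV-PyMT cGAMP 2 or 3, implanted PBS 3 or implanted cGAMP 3 (difference 1.02 to 1.2, adjusted p 0.0562 to 0.115). Sox17 (0.74, adjusted p = 0.102) and Efnb2 (0.64, adjusted p = 0.189) did not pass, so their fall in normal ECs is not shown to differ from the effect in MMTV-PyMT ECs.

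Between implanted and normal ECs, 2 of 6 members differed, both upward, against 18.6% of all tested genes (12.5% upward, 6.09% downward). Ackr1 rose more in implanted ECs by 1.4 ± 0.34 (adjusted p = 0.00842), and this held under every alternative tried (difference 1.08 to 1.71). At its mean of 0.745 FPKM in implanted PBS libraries, Bmx could not fall by the 0.86 of normal ECs on the log2(FPKM + 1) scale. Its difference was 0.63 ± 0.19 (adjusted p = 0.032), from no more than 25 reads per implanted library. Bmx lost the call with a pseudocount of 0.1 FPKM (0.4, adjusted p = 0.506) and with voom on recovered reads (0.3, adjusted p = 0.682). It also lost it without any of 7 libraries, which were normal PBS 1, 2 and 3, normal cGAMP 2, implanted PBS 3 and implanted cGAMP 1 and 2 (adjusted p 0.0548 to 0.0849). Between the 2 tumours 0 of 6 members differed, and 0 had an unadjusted p under 0.05 in the limma fit, where 11.1% of all tested genes passed (7.34% upward, 3.72% downward). For Ackr1 that difference was 0.26 with a 95% interval from −0.4 to 0.92.

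Other genes of arterial identity were taken from a list of 18, of which 17 were in the table and tested. In normal ECs 11 of 17 fell with cGAMP and 0 rose, where 18.2% of all tested genes fell, with a median log2 change of −0.72 against −0.04 over all tested genes. Gja5 (connexin 40, a gap junction protein of arterial ECs) went from 32.8 ± 2.44 to 6.22 ± 1.99 FPKM (SD, n = 3; log2 change −2.26, adjusted p = 6.87e-08), and the Notch target Hey1 from 36.4 ± 4.44 to 12.2 ± 2.06 FPKM (log2 change −1.51, adjusted p = 2e-05). Hey2, another Notch target, fell by 0.86 and the Notch ligand Jag1 by 0.81 on the log2 scale, and the connexin gene Gja4 and the Notch ligand Dll4 by 0.79 and 0.6. In MMTV-PyMT ECs only Hey1 of the 17 passed, as lower (log2 change −0.76, adjusted p = 0.012). In implanted ECs 6 fell and Hey2 rose, so 7 of 17 passed where 39.1% of all tested genes did, with Gja5 at −0.78 and Hey1 at −0.77, while Dll4 (0.22) and Gja4 (0.41) did not pass. Hey2 was low there, at 0.295 to 0.485 FPKM under PBS and 0.473 to 1.35 FPKM after cGAMP, and its libraries overlapped. The difference of the cGAMP effect from that of normal ECs passed for 8 of 17 in MMTV-PyMT and 6 of 17 in implanted ECs, all with a higher log2 change in the tumour, where 5.48% and 12.5% of all tested genes did so. In implanted ECs the log2 changes of Gja4 (0.41), Hey2 (0.42), Dll4 (0.22) and Notch4 (0.18) were above 0. For Gja5 the difference of the cGAMP effect from that of normal ECs was 2.62 in MMTV-PyMT ECs (adjusted p = 6.09e-05). It was 1.48 in implanted ECs (adjusted p = 0.000347), where Gja5 itself fell. Gja5 was at 1.05 to 1.27 FPKM in MMTV-PyMT PBS libraries. From there it could not fall by 2.26 on the log2(FPKM + 1) scale, so an upward difference was in part fixed by its level. The same limit holds for Hey2, at 0.171 to 0.574 FPKM in MMTV-PyMT PBS libraries.

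Under PBS the other arterial genes gave the same unevenness as Efnb2 and Bmx. In MMTV-PyMT against normal ECs 12 of 17 were lower and 1 was higher, with a median of −1.47 (56.5% of all tested genes passed, 26.6% as lower). Gja5 (−3.96), the semaphorin Sema3g (−3.2), Jag1 (−2.32) and Gja4 (−1.98) changed most, the axon guidance receptor gene Unc5b was higher (0.64), Hey1 was lower (−0.51) and Dll4 did not pass (−0.04). In implanted against normal ECs 10 were lower and 4 higher, with a median of −0.83 (48.7% of all tested genes passed, 23.6% as lower). The higher ones were the chemokine receptor gene Cxcr4 (2.64), Unc5b (2.4), Notch4 (1.44) and Dll4 (1.23), which went from 55.8 ± 5.21 to 133 ± 18.3 FPKM (adjusted p = 4.87e-05). Cxcr4, Unc5b and Dll4 are also known as genes of tip cells, the leading cells of vessel sprouts. Sema3g (−2.71), Fbln5 (−2.02), Gja4 (−1.61) and Gja5 (−1.34) were lower there, and Hey1 (0.2) did not pass. Between the tumours 12 of 17 were higher and 0 lower in implanted ECs (20.8% of all tested genes were higher), with Gja5 (2.62), Cxcr4 (2.43), Unc5b (1.75) and Notch4 (1.74) ahead, and 7 of 10 pan-endothelial markers were higher too.

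**Figure D4:**
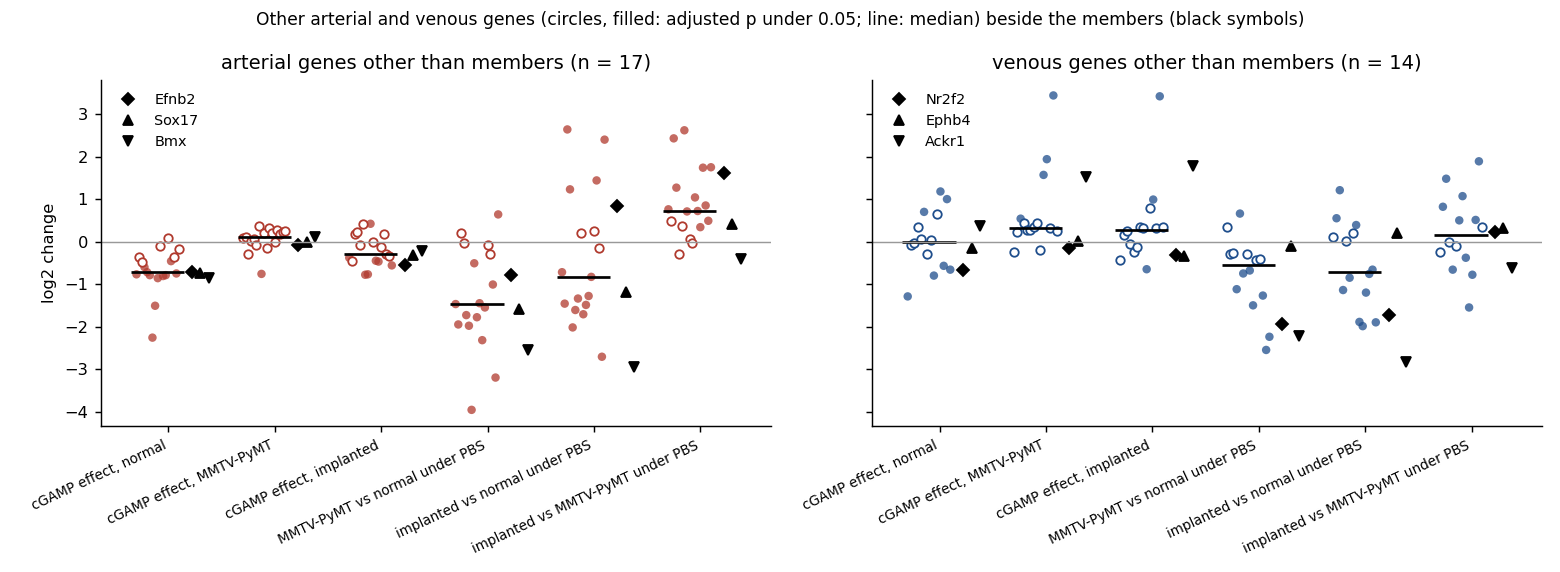
Log2 change (y axis) of 17 other arterial genes (left, red) and 14 other venous genes (right, blue) in 6 comparisons (x axis), with members as black symbols. Filled circles have an adjusted p under 0.05, and lines are list medians, at −0.72 for arterial genes with cGAMP in normal ECs and 0.12 in MMTV-PyMT ECs. The venous genes spread to both sides of 0 with cGAMP in normal ECs, with a few high points in each tumour.

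The 14 other venous genes were all tested. With cGAMP in normal ECs 3 rose and 4 fell, where 31.9% of all tested genes passed. The adhesion molecules Selp (P-selectin, 1.18), Vcam1 (1) and Madcam1 (0.7) rose, while the apelin receptor gene Aplnr (−1.29), Ptgs1 (−0.8), Vwf (von Willebrand factor, −0.66) and Tll1 (−0.57) fell. In MMTV-PyMT ECs 4 rose and 0 fell, where 12% of all tested genes passed. Those were Vcam1 (3.44), Selp (1.94), Sele (E-selectin, 1.57) and Flt4 (0.54), and Nrp2 (0.35), Vwf (0.26) and Aplnr (−0.25) did not pass. In implanted ECs Vcam1 (3.42) and Selp (0.99) rose and Ptgs1 fell (−0.65), where 39.1% of all tested genes passed, and Nrp2 (0.35), Vwf (0.34) and Aplnr (−0.43) did not pass. Selp, Sele, Vcam1 and Madcam1 are inducible adhesion molecules through which leukocytes attach, so this list holds genes of an activated endothelium as well as of veins. Vcam1 was at 2.08 ± 0.679 FPKM in MMTV-PyMT PBS and at 32.7 ± 8.11 FPKM after cGAMP (SD, n = 3; adjusted p = 4.24e-08).

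Under PBS, 7 of the 14 other venous genes were lower and 1 higher in MMTV-PyMT than in normal ECs (median −0.56), and 8 lower and 3 higher in implanted ECs (median −0.71). Of all tested genes 56.5% passed in the first comparison, so 8 of 14 in both directions is near the background, and 48.7% in the second, against 11 of 14. As lower alone, 7 and 8 of 14 stood against 26.6% and 23.6% of all tested genes. In MMTV-PyMT ECs the largest were Vcam1 (−2.55), Vwf (−2.24), Ptgs1 (−1.5) and Tll1 (−1.27). Selp (−0.42), Nrp2 (−0.29) and Aplnr (0.34) did not pass. In implanted ECs Sele (−1.99), Vwf (−1.9), Ptgs1 (−1.89), and, upward, the receptor tyrosine kinase gene Flt4 (1.21) changed most, and Selp was lower by 1.2. Nrp2 (0.21) and Aplnr (0.1) did not pass. Between the tumours 6 were higher and 4 lower in implanted ECs, where 45.5% of all tested genes passed, led by Vcam1 (1.89), Sele (−1.55), Flt4 (1.48) and Plvap (1.07).

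Efnb2 and Ephb4 belong to a large family, and 11 of 17 further ephrin and Eph genes could be tested. With cGAMP in normal ECs 1 rose (Epha1, 0.35) and 3 fell, which were Epha4 (−1), Efna1 (−0.88) and Ephb3 (−0.49), where 31.9% of all tested genes passed. In implanted ECs 5 fell and 0 rose, where 39.1% of all tested genes passed. Efnb1 (−0.67), the closest relative of Efnb2 on the list, was among those 5 and did not pass in normal (−0.22) or MMTV-PyMT ECs (−0.38). In MMTV-PyMT ECs Ephb3 (−0.81) and Epha2 (−0.42) fell, where 12% of all tested genes passed. Counted in both directions, these numbers are near the background. As lower alone, the 5 of 11 in implanted ECs stood against 18.8% of all tested genes. Under PBS Efnb1 was lower in both MMTV-PyMT (−1.09, adjusted p = 4.82e-06) and implanted ECs (−1.11, adjusted p = 4.53e-06), at 21.1 ± 1.85, 9.39 ± 0.827 and 9.26 ± 0.825 FPKM in normal, MMTV-PyMT and implanted PBS libraries (SD, n = 3). Efnb2 and Efnb1 thus went opposite ways in implanted ECs. Ephb1, a receptor of B ephrins, was higher in MMTV-PyMT (1.04) and implanted ECs (2.27), and Epha4 lower (−1.71 and −1.61), where Ephb4 did not pass.

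Relatives of the other members did not follow them uniformly. Of 11, 8 could be tested, and with cGAMP in normal ECs 1 rose and 4 fell, where 31.9% of all tested genes passed. Sox18, a SOXF factor like Sox17, fell with cGAMP in normal ECs (70.7 ± 6.08 to 33.7 ± 4.94 FPKM, SD, n = 3; log2 change −1.06, adjusted p = 0.00093) and in implanted ECs (−0.89, adjusted p = 0.00221), and was −0.39 in MMTV-PyMT ECs, which did not pass. Unlike Sox17, it was higher in implanted than in normal ECs under PBS (0.99, adjusted p = 0.00069) and not different by the test in MMTV-PyMT ECs (−0.14). Sox7, the other SOXF gene, did not pass in any of the comparisons of groups (log2 changes −0.07 to 0.52). Of the chemokine-scavenging relatives of Ackr1, Ackr3 did not pass with cGAMP (0.23, 0.24 and −0.01 for normal, spontaneous and implanted) and Ackr2 rose in normal (0.6) and MMTV-PyMT ECs (0.77). Under PBS Ackr3 was lower in MMTV-PyMT ECs (−1.07), Ackr4 lower in both tumours (−1.08 and −1.24) and Ackr2 higher in implanted ECs (2.29). Nr2f6, an orphan receptor related to Nr2f2, fell with cGAMP in normal (−0.55) and implanted ECs (−0.74).

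Across the 18 libraries the members split by pattern and not by vessel type. The highest Pearson correlation of log2(FPKM + 1) between members was between arterial Sox17 and venous Nr2f2 (0.96), followed by Bmx and Nr2f2 (0.92) and by Sox17 and Bmx (0.86). Efnb2 correlated with its receptor gene Ephb4 (0.65) and hardly with Sox17 (0.22) or Bmx (−0.24). These values describe libraries that share 6 groups and 1 scaling, and carry no test. Among all tested genes, those most like Efnb2 were Slc45a4 (0.956), the endothelial growth factor gene Pdgfb (0.956) and Tspan9 (0.939). Most like Sox17 were Nr2f2, Prrg1 and Adcy6 (0.963 to 0.962), most like Bmx were Syt7, Nkd1 and Ces2g (0.987 each), and most like Nr2f2 were Olfr558, Fhl5 and Tmem200b (0.978 to 0.971). Ackr1 was most like Rbm39, Ccnd2 and Acap2 (0.949 to 0.936), and Ephb4, the steadiest member, had its nearest genes further off, in Thsd1, Ccdc9b and Nova2 (0.826 to 0.787).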

How the data were processed

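The expression of 6 genes chosen by name was taken from 1 table of FPKM values in 18 libraries. The members and gene lists were chosen with earlier results of these data known. According to the authors, RNA from sorted ECs was made into directional libraries and sequenced as read pairs, and per the submitters' processing notes reads were checked with FastQC, aligned to mm10 with STAR 2.7 and counted with HTSeq. How FPKM were made from counts, and whether counting used the strand, is not given in the sources used here. The deposited FPKM table holds 16248 genes, with 0 values at 0. Of its columns, 12 name tumour type and treatment, while 6 name the treatment alone and were assigned to normal ECs by exclusion. The table has 0 columns without a sample.

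Genes with FPKM of at least 1 in at least 3 libraries were tested (13983, with 2265 left out). The log2(FPKM + 1) values were fitted in R 4.3.3 with limma 3.58.1, as 1 mean for each group of all 18 libraries and with a trended eBayes prior. Tests were 2-sided, and in each of 9 comparisons p-values were adjusted for all tested genes (Benjamini-Hochberg). The 95% intervals took the normal distribution, so they are somewhat narrower than intervals from the t-distribution behind the p-values. The script was tested on simulated data. Exon lengths of GENCODE M21 gave whole reads (within 0.1 read) for 15779 genes (97.11%), which voom used. Intervals and read counts cover counting error only where they rest on reads, as no molecular identifiers are named in the sources used here. Named are the 6 members in every comparison, 12 further genes fixed by name, up to 4 genes per list and comparison with the largest log2 change among those that passed, and the 3 genes most correlated with each member. Others were named after their values were seen.

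Alternatives were a pseudocount of 0.1 FPKM, no filter or a mean of at least 5 FPKM, quantile normalization, scaling by total reads, voom, the replicate block, compared groups only, a 2-fold limit and each library left out. Scaling by pan-endothelial markers was chosen after seeing the data. Same-numbered libraries of different groups did not deviate together (45 pairs, Pearson r −0.345 to 0.294, 8 above 0.1).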

Additional observations from a re-analysis of the deposited data

Results flagged for a closer look

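The effect of cGAMP differed between tissues, by a test of the difference itself, for 2 of the 6 genes. The log2 change of Bmx was higher in MMTV-PyMT than in normal ECs by 0.95 and higher in implanted than in normal ECs by 0.63. The log2 change of Ackr1 was higher in MMTV-PyMT than in normal ECs by 1.14 and higher in implanted than in normal ECs by 1.4. Bmx started from 12.2 to 12.7 FPKM in normal PBS libraries and from 0.491 to 1.66 FPKM in tumour PBS libraries, and Ackr1 from 89.7 to 109 FPKM and from 9.14 to 24.9 FPKM. Both genes thus differed in their starting levels where they differed in their effects. From its mean of 0.745 FPKM in implanted PBS libraries, Bmx could not fall by the 0.86 of normal ECs on the log2(FPKM + 1) scale. Its upward difference there was therefore in part fixed by its level, and was 0.4 (adjusted p = 0.506) with a pseudocount of 0.1 FPKM.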

How the results depend on the processing

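Of 54 results on single genes, 25 kept their direction and their side of the threshold under every alternative other than the fold limit. Among them were the fall of Efnb2, Sox17 and Bmx with cGAMP in normal ECs, the rise of Ackr1 with cGAMP in both tumours, the lower Sox17, Bmx, Nr2f2 and Ackr1 in both tumours and the higher Efnb2 in implanted ECs. Of 1503 values recomputed under 28 alternatives, 69 lost a call, 14 gained one and 27 turned direction. Bmx was not tested where a mean of at least 5 FPKM was required. With 3 libraries per group, small changes of low genes are hard to detect, and Bmx rests on few reads in implanted ECs.

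Numbers of members that passed moved as follows. With the 2-fold limit, 0 passed with cGAMP in normal ECs, and 1 passed with cGAMP in implanted ECs, between tumours under PBS and in the differences of the cGAMP effect of each tumour from normal. With cGAMP in implanted ECs 5 passed with scaling by total reads and 1 with compared groups only. For MMTV-PyMT minus normal the number was 0 with a pseudocount of 0.1 FPKM and with scaling by pan-endothelial markers, and 1 without a filter, with a mean of at least 5 FPKM, with total reads and with the replicate block. For implanted minus normal it was 1 with the pseudocount of 0.1 FPKM, a mean of at least 5 FPKM, voom and pan-endothelial scaling. For implanted minus MMTV-PyMT it was 1 with quantile normalization. With each library left out in turn, the number was 1 to 3 with cGAMP in implanted ECs, 1 to 4 between tumours under PBS, 1 to 3 for MMTV-PyMT minus normal and 1 to 2 for implanted minus normal. The cause was not tested.

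Directions turned for small changes that had not passed. With pan-endothelial scaling they were −0.05 for Efnb2 (implanted minus normal), −0.13 for Sox17 and −0.29 for Nr2f2 and Ephb4 (implanted against MMTV-PyMT), −0.03 for Bmx and −0.21 for Ephb4 (cGAMP in MMTV-PyMT), 0.00225 for Ephb4 (cGAMP in normal), 0.48 for Ephb4 (MMTV-PyMT against normal) and −0.21 for Ephb4 (MMTV-PyMT minus normal). With quantile normalization they were −0.09 for Efnb2 (implanted minus normal), −0.06 for Ephb4 (cGAMP in MMTV-PyMT), −0.03 for Ephb4 (implanted against normal) and −0.06 for Ackr1 (implanted minus MMTV-PyMT), and with total reads −0.14 for Efnb2 (implanted minus normal) and −0.12 for Ephb4 (cGAMP in MMTV-PyMT). With each library left out in turn, directions turned within these ranges: with cGAMP in MMTV-PyMT ECs −0.25 to 0.05 for Efnb2, −0.21 to 0.17 for Sox17 and −0.03 to 0.11 for Ephb4, for implanted against MMTV-PyMT −0.05 to 0.48 for Nr2f2, for implanted minus normal −0.03 to 0.48 for Efnb2 and −0.29 to 0.03 for Ephb4, and for implanted minus MMTV-PyMT −0.42 to 0.1 for Nr2f2.

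Scaling moved the median log2 change of all genes. Relative to −0.04 (MMTV-PyMT) and −0.01 (implanted ECs) with cGAMP, total reads shifted it by −0.11 and −0.23, and the share of higher genes among those that passed went from 61.9% to 27.5% and from 52% to 22.2%. Pan-endothelial scaling shifted it by 0.46 for MMTV-PyMT against normal (52.8% to 83.3% higher), by −0.47 between tumours (45.8% to 10.2%) and by 0.12 with cGAMP in normal ECs (43.1% to 75.8%), so changes are relative to the scaling used.

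A replicate number may stand for 1 of the independent experiments the study describes, which the labels do not say, and same-numbered libraries did not deviate together. The replicate block ended the calls of Nr2f2 with cGAMP in normal ECs (adjusted p = 0.0507), of Ackr1 between tumours (adjusted p = 0.0626) and of Ackr1 for MMTV-PyMT minus normal (adjusted p = 0.0734).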
